A study of Mus musculus with 8 samples.

Results

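Histone genes were examined in polyadenylated RNA of A223, a line of mouse squamous carcinoma cells. The 77 genes described are every gene of the deposited count tables whose symbol begins with Hist1h, Hist2h, Hist3h or Hist4h, together with H1f0, H1fx, H2afx, H2afz, H2afy, H2afv, H2afj, H3f3a and H3f3b, out of 24411 genes in all. Of these, 28 had at least 10 counts in 2 or more of the 8 libraries and were tested. The 4 groups, of 2 libraries each, were PRDX6 KD cells with 100 nM largazole for 18 h, PRDX6 KD cells with DMSO at 0 h, parental cells with 100 nM largazole for 18 h and parental cells with DMSO at 0 h. KD denotes a knockdown of PRDX6, a peroxidase of the peroxiredoxin family that also repairs oxidized phospholipids, and largazole is an inhibitor of class I histone deacetylases. How the knockdown was made, and whether the KD cells are a clone or a pool, is not given in the sources used here, and no line with a control construct was analysed here. Drug and time changed together, so that the effect of 18 h in culture and the effect of largazole cannot be told apart. Separate cultures are not stated for the 2 libraries of a group, so the spread behind each p-value is that between libraries and may be technical only.

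Histone genes form 2 families. The replication-dependent genes, named Hist in this annotation, lie in clusters and are transcribed in S phase to package newly made DNA. Most of their mRNAs have no intron and no poly(A) tail: they end just after a short hairpin, the histone stem-loop, which is bound by the stem-loop binding protein Slbp and cut by a complex that contains the U7 small nuclear RNA. The replication-independent genes, such as H3f3a and H3f3b (histone H3.3), H2afz (H2A.Z) and H1f0 (linker histone H1.0), are spread over the genome, are expressed through the cell cycle or in cells that leave it, and have ordinary polyadenylated mRNAs. H2afx, which encodes the DNA damage histone H2A.X, makes mRNA of both kinds. Libraries made after poly(A) selection therefore measure the replication-independent genes in full, but of the replication-dependent genes they hold only the transcripts that carry, or were captured as if they carried, a poly(A) tail.

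The stem-loops of 6 members with a measurable level are shown to make clear that these genes do hold the usual 3′ end signal. They are read from GENCODE M21 transcripts on GRCm38, 5′ to 3′ on the transcript strand. Capitals mark the 16 bases that match the histone stem-loop consensus, searched on the transcript strand only, with 5 bases on either side.
Hist1h1c: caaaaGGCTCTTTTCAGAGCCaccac
Hist2h2aa1: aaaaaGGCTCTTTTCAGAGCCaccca
Hist3h2a: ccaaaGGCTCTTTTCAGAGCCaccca
Hist1h4i: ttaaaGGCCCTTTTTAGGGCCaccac
Hist1h3c: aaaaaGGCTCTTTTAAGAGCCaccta
H2afx: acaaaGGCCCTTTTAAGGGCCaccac
These lie at chr13:23739507-23739532 (Hist1h1c, plus strand), chr3:96246027-96246052 (Hist2h2aa1, plus), chr11:58955167-58955192 (Hist3h2a, plus), chr13:22040961-22040986 (Hist1h4i, minus), chr13:23745042-23745067 (Hist1h3c, minus) and chr9:44335235-44335260 (H2afx, plus). The form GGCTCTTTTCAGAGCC was the most frequent, in 26 Hist genes, and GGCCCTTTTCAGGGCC followed with 7. A stem-loop was matched in 46 of the 67 Hist genes once the pseudogene Hist3h2bb-ps is set aside. Among all 58797 coding transcripts of the annotation only 0.148% held a match, which was 87 transcripts, 49 of them from the histone genes described here.

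Several of these transcripts continue well past the stem-loop in the annotation, and some end beside a poly(A) signal. The annotated transcript runs on for 840 bases after the stem-loop in Hist1h1c, 1643 bases in Hist3h2a, 330 bases in Hist1h4i and 822 bases in H2afx. It runs on for 35 bases in Hist2h2aa1 and 74 bases in Hist1h3c. The last 30 bases of 6 transcripts follow, with the poly(A) signal (AATAAA or ATTAAA) in capitals, since these are the annotated 3′ ends that poly(A) selection would retain.
Hist2h2be: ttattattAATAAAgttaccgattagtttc
Hist1h1c: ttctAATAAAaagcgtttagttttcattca
Hist1h4i: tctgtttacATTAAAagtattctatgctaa
Hist1h2ae: ccAATAAAtgggtcaatttttttcagattc
H1f0: aactttaaAATAAAactggaaaggaaaaaa
H1fx: ctggggcgcAATAAAcggttccaaccttga
Their positions are chr3:96223709-96223738 (Hist2h2be, plus), chr13:23740338-23740367 (Hist1h1c, plus), chr13:22040636-22040665 (Hist1h4i, minus), chr13:23570517-23570546 (Hist1h2ae, minus), chr15:79030475-79030504 (H1f0, plus) and chr6:87980421-87980450 (H1fx, minus). In Hist2h2be no stem-loop was matched: the annotated transcript is a single exon of 2620 bases at chr3:96221119-96223738. Hist1h2bc also had none, and its annotated transcript joins an exon of 423 bases at chr13:23684199-23684621 to an exon of 733 bases at chr13:23692176-23692908 across an intron of 7554 bases. A missing match says only that these letters are not in the annotated transcript.

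The libraries held 13020492 to 15613216 estimated counts each. Prdx6, the targeted gene, stood at 1040 and 962 counts in KD largazole, 1315 and 1075 in KD DMSO, 3774 and 3533 in parental largazole and 4016 and 4189 in parental DMSO, so the KD libraries matched their labels. Of 13 keratinocyte markers, Krt8 was above 1000 CPM in every library, but Krt5 and Cdh1 were below 1 CPM in every library and Trp63 and Epcam were listed at 0 in all 4 DMSO libraries. Rn45s, the ribosomal RNA precursor and a sign of incomplete poly(A) selection, differed between the libraries of 3 groups: 306840 and 11004 counts in KD largazole, 151293 and 34603 in KD DMSO, 113640 and 14412 in parental largazole, against 18301 and 17966 in parental DMSO. The level of polyadenylated histone RNA is thus given per library, and a refit without Rn45s is reported where it changes a call. CPM is the count relative to the library size, which was scaled by TMM (trimmed mean of M-values). Bulk RNA cannot tell fewer cells of a kind, such as cells in S phase, from less RNA per cell.

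The replication-independent genes held nearly all of the measured histone RNA. The 9 genes named singly summed to 1551 and 1263 CPM in KD largazole, 2085 and 2013 CPM in KD DMSO, 1495 and 1381 CPM in parental largazole, and 2116 and 2084 CPM in parental DMSO. The Hist genes together summed to 108 and 82.3 CPM in KD largazole, 60.9 and 54.9 CPM in KD DMSO, 71.8 and 65.6 CPM in parental largazole, and 39.7 and 37.4 CPM in parental DMSO. Both sums separated largazole from DMSO in each genotype without overlap, but in opposite directions. The Hist genes made up 6.32% of all histone CPM in KD largazole, 2.75% in KD DMSO, 4.56% in parental largazole and 1.80% in parental DMSO.

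Per kilobase of the longest annotated coding transcript, and averaged over the 8 libraries, H2afz had the highest level at 288 CPM per kb. H3f3b followed at 216, H1f0 at 155, H3f3a at 91.5, H2afx at 74.1, H2afy at 54.6 and H2afj at 37.8 CPM per kb. H2afv at 18.9 and Hist1h2bc at 18.8 CPM per kb were level with each other, and Hist1h2bc differed more between groups than the gap to H2afv. The next Hist genes were far lower, with Hist2h2aa1 at 6.40, Hist1h1c at 4.73, Hist1h4i at 3.24 and Hist2h2be at 2.84 CPM per kb.

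**Figure D1:**
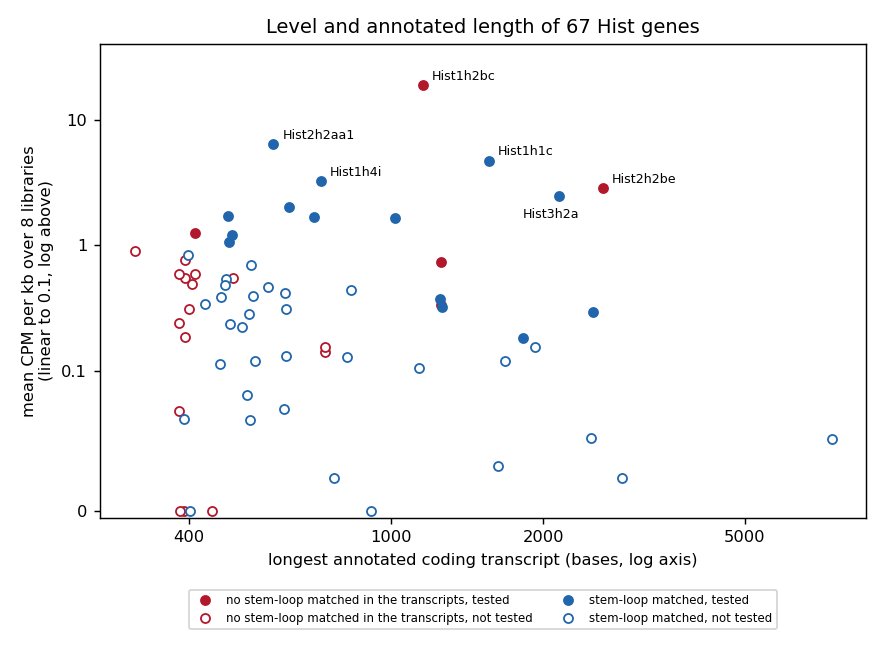
Mean level of 67 Hist genes over 8 libraries (CPM per kb of the longest coding transcript, linear to 0.1 and logarithmic above) against the length of that transcript in bases (log axis); filled points were tested, open points were not, and colour shows whether a stem-loop was matched. Hist1h2bc, at 18.8 CPM per kb, stands above the other Hist genes, and all 48 untested genes lie below 1 CPM per kb.

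Most Hist genes were close to the floor of detection. Of the 68 Hist rows, pseudogene included, 19 were tested, 5 were listed at 0 in every library, and those not tested had between 0 and 44 counts in all 8 libraries together (median 14), against a median of 104 for those tested. By class, 1 of 6 H1 genes, 5 of 18 H2A genes, 6 of 19 H2B genes (pseudogene included), 6 of 12 H3 genes and 1 of 13 H4 genes were tested. Just inside the filter lay Hist1h2ao (highest library 21 counts), Hist1h3f (13) and Hist2h3c1 (20), and just outside it lay Hist1h1d (12), Hist1h2ap (10), Hist1h3e (10) and Hist2h2bb (10). For no tested Hist gene were the libraries with 10 or more counts all in a single group. In Hist1h3d, however, they were all KD libraries, in Hist1h3f all largazole libraries and in Hist1h2ao all DMSO libraries.

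The Hist genes that passed the filter differed from the others in annotated structure, which the filter did not use. Of the 19 tested genes 11 had a transcript longer than 1000 bases, as did 7 of the 48 untested coding genes. The median transcript length was 1156 bases in the tested genes and 514 bases in the untested ones. A poly(A) signal lay within the last 40 bases in 9 of the 19 tested genes and in 8 of the 48 untested ones. Of the tested genes 4 had more than 1 exon, against 1 of the untested. A stem-loop was matched in 14 of the 19 tested genes and 32 of the 48 untested ones, and the annotated transcript ran at least 100 bases past it in 9 and 14 of them. The genes without a matched stem-loop but with a transcript over 1000 bases, Hist1h2bc, Hist2h2be, Hist1h2bq and Hist1h2br, are all H2B genes and were all tested. Longer transcripts also collect more fragments at the same abundance, so these counts are a description. They carry no test, since members share sequence and annotation.

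Shared sequence limits some single-gene values. Up to 49.1% of the nonzero Hist values in a library were fractional, against at most 2.83% over all genes, and fractions arise where a counter divides reads among genes. In 50-base windows of their transcripts, Hist1h2bq shared 97.3% with Hist1h2br, Hist2h3c2 shared 63.5% with Hist2h3c1, and Hist2h2aa1 shared 89.2% with Hist2h2aa2. In the other direction, Hist1h2br shared 88.7%, Hist2h3c1 34.7% and Hist2h2aa2 100.0%. Hist2h2be and H1f0 shared none with any other gene, and Hist1h2bc shared 30.1%. Hist2h3c1 is the clearest case of divided reads: it was listed at 17.5 counts in KD largazole replicate 2 and 19.99 counts in parental DMSO replicate 1, and at 0 in the other 6 libraries. Values for such pairs are therefore given both singly and summed. Hist2h2aa1 also overlaps Gm20634 on the same strand, a symbol absent from the deposited count tables. H1f0, H1fx, H2afj, H2afx, H2afy and H3f3a overlap genes annotated on the opposite strand. So do the tested Hist genes Hist1h2ae, Hist1h2ag, Hist1h2ao, Hist2h2aa1 and Hist3h2a. Whether the counting used strand is not given in the sources used here. H1fx also overlaps Gm47286 on the same strand, a symbol likewise absent from those count tables.

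Largazole was compared with DMSO in each genotype, which asks how these genes differ after 18 h of largazole in cells with lowered PRDX6 and in parental cells. In KD cells 10 of the 28 tested histone genes passed the threshold, 5 higher and 5 lower (edgeR's quasi-likelihood test, Benjamini-Hochberg adjusted p under 0.05), where 48.1% of all 12567 genes tested passed, 24.9% higher and 23.2% lower. In parental cells 10 of 28 passed, again 5 higher and 5 lower, where 49.6% of all genes passed, 26.9% higher and 22.7% lower. The 28 together were called less often than all genes in both genotypes, but they pool unlike sets. Of the 9 genes named singly 6 were called in each genotype, and of the 19 tested Hist genes 4 were. Those Hist genes had a median of 104 counts over all 8 libraries, and few counts limit their calls. The 19 tested Hist genes gave 4 higher and 0 lower in each genotype, a share of higher calls below the 24.9% and 26.9% of all genes, and 1 of the 4 in parental cells, Hist2h3c2, did not pass once its counts were summed with those of its copy. The 9 replication-independent genes, H2afx included, gave 1 higher and 5 lower in each. The median log2 fold change over the tested Hist genes, divided copies included, was 0.84 in KD cells and 0.60 in parental cells. It was -0.40 and -0.52 over the other 9, and 0.01 and 0.03 over all genes tested. In each genotype 15 of the 19 Hist genes did not pass. Without Hist1h2bc, Hist2h2be and Hist2h2aa1, summed Hist CPM had largazole to DMSO ratios of 1.04 in KD cells and 1.14 in parental cells.

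Of the linker histone genes, H1fx rose and H1f0 fell. H1fx (chr6:87980421-87981637, minus strand) encodes the variant H1.X. It had 11.9 and 9.17 CPM in KD largazole, 2.31 and 1.84 CPM in KD DMSO, 8.23 and 5.93 CPM in parental largazole, and 1.04 and 0.81 CPM in parental DMSO. Every largazole library was above every DMSO library, and in counts parental DMSO rested on 14 and 12 only. The log2 fold change was 2.33 ± 0.27 in KD cells (SE, adjusted p = 7.11e-05, edgeR's quasi-likelihood test) and 2.93 ± 0.33 in parental cells (adjusted p = 6.50e-05). H1f0 (chr15:79028450-79030504, plus strand), which encodes the linker histone known to accumulate in differentiated cells and after deacetylase inhibition in other systems, went the other way. It had 229 and 197 CPM in KD largazole, 387 and 361 CPM in KD DMSO, 280.0 and 273 CPM in parental largazole, and 413 and 405 CPM in parental DMSO. No largazole library reached a DMSO library of either genotype. The fall was -0.81 ± 0.09 in KD cells (adjusted p = 4.11e-05) and -0.57 ± 0.08 in parental cells (adjusted p = 0.000402, edgeR's quasi-likelihood test).

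H2afx had the largest fall in each genotype among the histone genes that passed the threshold. H2afx (chr9:44334694-44336077, plus strand) encodes H2A.X, the variant phosphorylated at DNA breaks. It had 42.4 and 33.5 CPM in KD largazole, 172 and 159 CPM in KD DMSO, 52.9 and 44.9 CPM in parental largazole, and 164 and 152 CPM in parental DMSO. The largazole libraries were all below 53 CPM and the DMSO libraries all above 150 CPM. The log2 fold change was -2.12 ± 0.13 in KD cells (adjusted p = 1.13e-06, edgeR's quasi-likelihood test) and -1.69 ± 0.12 in parental cells (adjusted p = 4.00e-06).

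The remaining H2A variants differed among themselves. H2afz encodes H2A.Z, found around transcription start sites, and had 241 and 179 CPM in KD largazole, 369.8 and 379.8 CPM in KD DMSO, 254 and 211 CPM in parental largazole, and 411 and 417 CPM in parental DMSO. It fell by 0.84 ± 0.13 on the log2 scale in KD cells (adjusted p = 0.000556) and by 0.83 ± 0.13 in parental cells (adjusted p = 0.000541, edgeR's quasi-likelihood test), with no overlap of largazole and DMSO libraries. H2afy encodes macroH2A1, a variant with a large globular domain, and had 101 and 96.7 CPM in KD largazole, 133 and 128 CPM in KD DMSO, 92.5 and 86.6 CPM in parental largazole, and 127 and 129 CPM in parental DMSO. Its libraries were also fully separated, with a fall of 0.40 ± 0.08 in KD cells (adjusted p = 0.00205) and 0.51 ± 0.08 in parental cells (adjusted p = 0.000439). H2afv, the second H2A.Z gene, did not pass. It had 42.9 and 24.9 CPM in KD largazole, 31.8 and 31.9 CPM in KD DMSO, 32.4 and 27.8 CPM in parental largazole, and 28.5 and 26.8 CPM in parental DMSO. Its KD largazole libraries lay on either side of KD DMSO, and the log2 fold change of 0.08 ± 0.21 in KD cells (adjusted p = 0.769) was -0.35 without KD largazole replicate 1 (adjusted p = 0.0293) and 0.43 without replicate 2 (adjusted p = 0.00617). Over all alternatives its adjusted p lay between 0.00617 and 0.948. H2afj, an H2A gene with a polyadenylated transcript that is known to accumulate in senescent human cells, had 107 and 66.6 CPM in KD largazole, 69.97 and 62.8 CPM in KD DMSO, 76.8 and 61.1 CPM in parental largazole, and 54.7 and 55.1 CPM in parental DMSO. It did not pass in KD cells (0.39 ± 0.19, adjusted p = 0.122) or parental cells (0.33 ± 0.19, adjusted p = 0.183). In KD cells its log2 fold change was 0.00615 without KD largazole replicate 1 (adjusted p = 0.971) and 0.70 without replicate 2 (adjusted p = 9.38e-05, edgeR's quasi-likelihood test). In parental cells H2afj passed with only the libraries compared (adjusted p = 0.00422) and when either KD largazole library was left out (adjusted p = 0.016 for the first and 0.00816 for the second). In KD largazole, replicate 1 held the higher value of all 9 genes named singly, H2afv and H2afj included. The Hist sum was also higher in it, at 108 against 82.3 CPM. That library was also the one with 306840 counts of Rn45s. The part of that RNA in these values was not tested beyond a refit without it, which changed the call of neither H2afv nor H2afj.

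The H3.3 genes gave unlike results although they encode the same protein. H3f3b had 473 and 419.9 CPM in KD largazole, 652 and 606 CPM in KD DMSO, 452 and 434 CPM in parental largazole, and 662 and 645 CPM in parental DMSO. All largazole libraries were lower than all DMSO libraries, with a log2 fold change of -0.49 ± 0.08 in KD cells (adjusted p = 0.000705) and -0.56 ± 0.08 in parental cells (adjusted p = 0.000316, edgeR's quasi-likelihood test). H3f3a had 303 and 235 CPM in KD largazole, 267 and 282 CPM in KD DMSO, 246 and 236 CPM in parental largazole, and 255 and 254 CPM in parental DMSO. Its groups overlapped in KD cells, and it did not pass in either genotype (-0.03 ± 0.11, adjusted p = 0.838, and -0.08 ± 0.11, adjusted p = 0.569). In KD cells it passed without KD largazole replicate 1, and the difference between the fold changes of H3f3a and H3f3b was not itself tested.

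**Figure D2:**
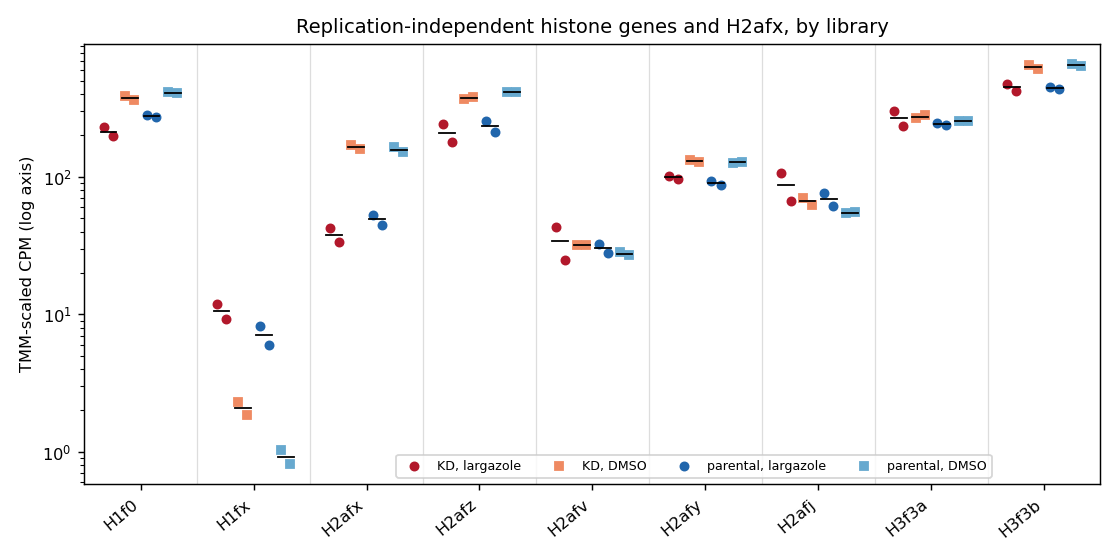
TMM-scaled CPM (log axis) of H2afx and the 8 replication-independent histone genes; each point is 1 library, black bars are means of 2 libraries, and colours mark the 4 groups. H1fx is higher in all largazole libraries, H1f0, H2afx, H2afz, H2afy and H3f3b are lower in all of them, and H2afv, H2afj and H3f3a overlap in KD cells; levels are not scaled for transcript length.

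Among the replication-dependent genes, 2 H2B genes and an H2A gene rose in both genotypes. Hist1h2bc, the H2B gene with the spliced transcript described above, had 45.9 and 32.0 CPM in KD largazole, 15.4 and 14.001 CPM in KD DMSO, 26.4 and 23.8 CPM in parental largazole, and 8.20 and 8.57 CPM in parental DMSO. Each largazole library was above every DMSO library. The log2 fold change was 1.40 ± 0.17 in KD cells (adjusted p = 0.000118, edgeR's quasi-likelihood test) and 1.58 ± 0.19 in parental cells (adjusted p = 9.48e-05). Hist2h2be, the H2B gene with the AATAAA end shown above and no shared window, had 12.2 and 11.8 CPM in KD largazole, 3.82 and 4.35 CPM in KD DMSO, 10.7 and 11.0 CPM in parental largazole, and 3.11 and 2.63 CPM in parental DMSO. The largazole libraries of the 2 genotypes lay within 1.5 CPM of each other, well above the DMSO libraries, and the gene rose by 1.55 ± 0.18 in KD cells (adjusted p = 6.54e-05) and 1.92 ± 0.19 in parental cells (adjusted p = 2.67e-05).

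Hist2h2aa1 (chr3:96245497-96246082, plus strand), an H2A gene, had 8.41 and 5.52 CPM in KD largazole, 3.36 and 3.68 CPM in KD DMSO, 3.27 and 3.03 CPM in parental largazole, and 1.04 and 1.69 CPM in parental DMSO. Within each genotype the largazole libraries were the higher ones, but parental largazole did not exceed KD DMSO. It rose by 0.97 ± 0.26 in KD cells (adjusted p = 0.0119) and 1.19 ± 0.36 in parental cells (edgeR's quasi-likelihood test, adjusted p = 0.0192). This call was lost in KD cells without KD largazole replicate 1 or KD DMSO replicate 1, and in parental cells without either parental largazole library or parental DMSO replicate 1 (adjusted p over all alternatives 0.000684 to 0.0740 and 0.00308 to 0.123). Summed with its near copy Hist2h2aa2, which had 4.08 counts in 1 library and 0 in the others, it passed in both genotypes (1.00 ± 0.25, adjusted p = 0.00845, and 1.19 ± 0.35, adjusted p = 0.0164).

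The fourth call in each genotype was an H3 gene with few counts. Hist1h3c had 1.71 and 1.87 CPM in KD largazole, 0.90 and 0.54 CPM in KD DMSO, 1.43 and 1.49 CPM in parental largazole, and 1.26 and 0.99 CPM in parental DMSO. It passed in KD cells (1.30 ± 0.38, adjusted p = 0.0183) but not in parental cells (0.38 ± 0.36, adjusted p = 0.406), and the KD call was lost with DESeq2, without KD largazole replicate 2 and without KD DMSO replicate 2 (adjusted p over all alternatives 0.0139 to 0.112). Hist2h3c2 passed in parental cells with a log2 fold change of 3.22 ± 0.75 (adjusted p = 0.00518). That value rested on parental DMSO libraries at 0 and 5.91 counts, against 30.1 and 30.9 in parental largazole, while the 19.99 counts of its copy Hist2h3c1 fell in the library where Hist2h3c2 was at 0.

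Summing the copies gave a smaller fold change, which did not pass in parental cells. Hist2h3c1 and Hist2h3c2 together had 50.9 and 46.0 counts in KD largazole, 25.7 and 18.8 in KD DMSO, 30.1 and 30.9 in parental largazole, and 19.99 and 5.91 in parental DMSO. The largazole libraries were higher in each genotype. The sum passed in KD cells (1.16 ± 0.38, adjusted p = 0.0272) and not in parental cells (1.14 ± 0.47, adjusted p = 0.0643, edgeR's quasi-likelihood test on a table refitted with the copies summed). Hist1h2bq and Hist1h2br, a nearly identical pair of H2B genes, had 33.9 and 29.7 summed counts in KD largazole, 15.5 and 10.7 in KD DMSO, 20.6 and 20.1 in parental largazole, and 12.6 and 9.43 in parental DMSO. Neither gene passed singly, and the sum passed in KD cells (1.35 ± 0.35, adjusted p = 0.00992) and not in parental cells (0.81 ± 0.40, adjusted p = 0.118). The summing was chosen after the divided counts had been seen.

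The other well-measured Hist genes did not pass under largazole. Hist1h1c, the H1.2 gene with a stem-loop and a poly(A) signal, had 8.10 and 6.67 CPM in KD largazole, 8.83 and 8.99 CPM in KD DMSO, 7.69 and 7.31 CPM in parental largazole, and 5.33 and 6.07 CPM in parental DMSO. Its log2 fold change was -0.28 ± 0.17 in KD cells (adjusted p = 0.217) and 0.39 ± 0.18 in parental cells (adjusted p = 0.0995). Hist3h2a, an H2A gene outside the large clusters, had 5.69 and 5.46 CPM in KD largazole, 7.25 and 6.26 CPM in KD DMSO, 3.81 and 3.43 CPM in parental largazole, and 5.40 and 4.93 CPM in parental DMSO. It was lower in every largazole library than in the DMSO libraries of its genotype, but did not pass (-0.28 ± 0.19, adjusted p = 0.238, and -0.51 ± 0.21, adjusted p = 0.0630). In parental cells it passed with only the libraries compared and without KD largazole replicate 1. Its exons overlap those of Trim17, which had at most 2 counts in any library. Hist1h4i, the 1 tested H4 gene, had 3.43 and 2.76 CPM in KD largazole, 2.504 and 3.10 CPM in KD DMSO, 1.50 and 2.11 CPM in parental largazole, and 2.22 and 1.21 CPM in parental DMSO. Its groups overlapped in both genotypes (0.14 ± 0.31, adjusted p = 0.730, and 0.09 ± 0.37, adjusted p = 0.859). Hist1h2ae, Hist1h2bk and Hist1h2be, each at about 1 CPM, did not pass either, with log2 fold changes of -0.30, 0.84 and 0.37 in KD cells and 0.39, 0.60 and 0.69 in parental cells.

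**Figure D3:**
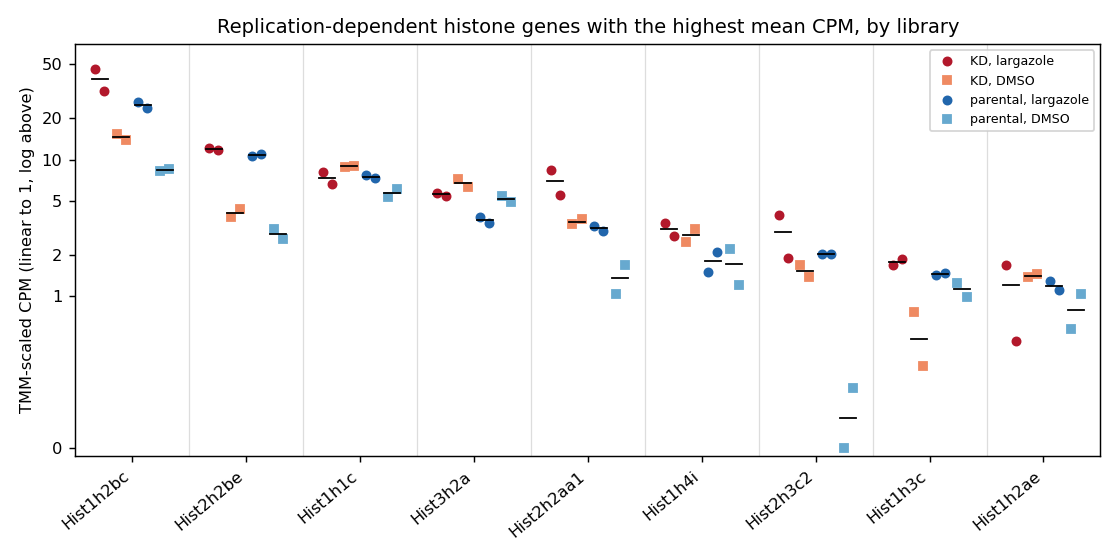
TMM-scaled CPM (linear to 1, logarithmic above) of the 9 tested Hist genes with the highest mean CPM; each point is 1 library, black bars are means of 2 libraries, and colours mark the 4 groups. Hist1h2bc and Hist2h2be stand apart in all largazole libraries, while Hist1h1c, Hist3h2a and Hist1h4i do not rise in both genotypes, and Hist2h3c2 is at 0 in 1 parental DMSO library; levels are not scaled for transcript length.

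Summed by class, H2B had the highest ratio of largazole to DMSO in each genotype. The 18 Hist H2B genes together had 64.6 and 49.3 CPM in KD largazole, 23.6 and 21.9 CPM in KD DMSO, 41.6 and 38.7 CPM in parental largazole, and 14.8 and 13.7 CPM in parental DMSO. These are ratios of largazole to DMSO means of 2.51 in KD cells and 2.82 in parental cells, given without a test. The corresponding ratios were 1.11 and 0.958 for the 18 H2A genes, 1.41 and 1.44 for the 12 H3 genes, 1.02 and 1.21 for the 13 H4 genes and 0.861 and 1.34 for the 6 H1 genes. The H3 sums were also higher under largazole without overlap, at 9.89 and 7.08 CPM in KD largazole, 6.26 and 5.75 CPM in KD DMSO, 6.94 and 5.797 CPM in parental largazole, and 4.96 and 3.91 CPM in parental DMSO. Without Hist1h2bc, Hist2h2be and Hist2h2aa1, the remaining 64 Hist genes had ratios of 1.04 in KD cells and 1.14 in parental cells. H2B genes held 60.0% of Hist CPM in KD largazole, 39.3% in KD DMSO, 58.5% in parental largazole and 37.0% in parental DMSO. The other 16 H2B genes also had higher sums under largazole: 6.495 and 5.56 CPM in KD largazole, 4.35 and 3.54 CPM in KD DMSO, 4.60 and 3.98 CPM in parental largazole, and 3.49 and 2.499 CPM in parental DMSO. The 48 Hist genes that did not pass the filter, summed, showed no such separation, with ratios of 0.868 and 1.12.

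**Figure D4:**
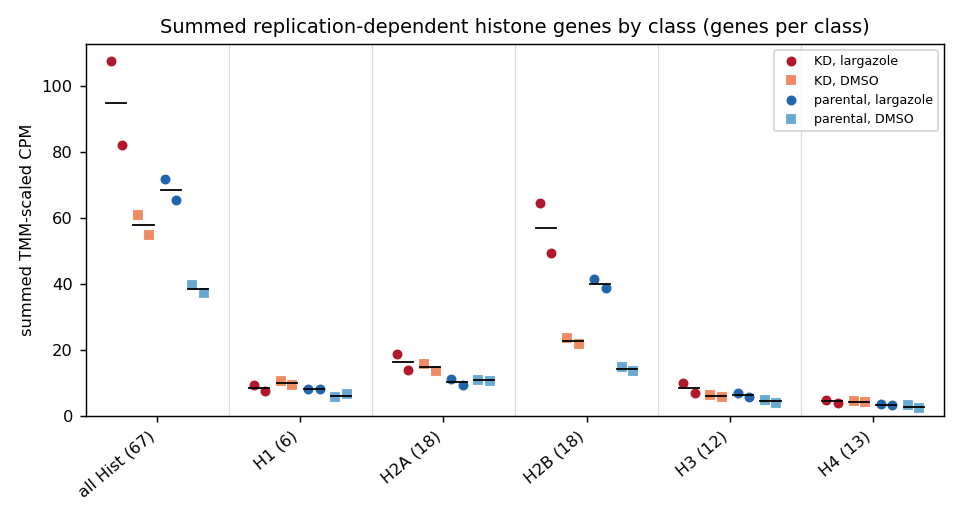
Summed TMM-scaled CPM of Hist genes by histone class, with the number of genes in brackets; each point is 1 library, black bars are means of 2 libraries, and colours mark the 4 groups. The H2B sum is 49.3 CPM or more in KD largazole and 23.6 CPM or less in KD DMSO, and the H2A, H3, H4 and H1 sums are below 20 CPM in every library.

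Promoters of members were read from the RefSeq table for GRCm38.p6, which gives 250 bases before and 50 after each gene's start, and 69 members matched, 61 of them Hist genes. Hist1h2bc, Hist2h2be and H2afx were among those not matched. Of the 61 Hist promoters, 85.2% held CCAAT on either strand, against 37.4% of all 32851 promoters in the table. TATAAA was in 57.4% against 13.6%, and ATTTGCAT, the octamer known from H2B promoters, in 21.3% against 1.70%. All 16 matched H2B promoters held CCAAT and 6 held the octamer. The motifs do not overlap in their letters, and a match is a description, not a binding site. The 150 bases before the start of 3 members that differed in their response are printed with these motifs, on either strand, in capitals: Hist2h2aa1, which rose in both genotypes, and Hist1h1c and Hist3h2a, which passed in neither.
Hist2h2aa1: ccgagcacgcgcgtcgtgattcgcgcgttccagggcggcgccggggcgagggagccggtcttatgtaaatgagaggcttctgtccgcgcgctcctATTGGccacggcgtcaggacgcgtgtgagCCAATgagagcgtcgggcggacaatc
Hist1h1c: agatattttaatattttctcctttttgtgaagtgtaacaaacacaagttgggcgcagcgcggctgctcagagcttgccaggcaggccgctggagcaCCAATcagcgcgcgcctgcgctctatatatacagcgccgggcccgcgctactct
Hist3h2a: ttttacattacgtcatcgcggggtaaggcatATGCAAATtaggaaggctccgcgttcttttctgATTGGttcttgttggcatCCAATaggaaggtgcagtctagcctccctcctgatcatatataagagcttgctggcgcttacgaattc
They lie at chr3:96245347-96245496, chr13:23738657-23738806 and chr11:58954535-58954684, all on the plus strand. CCAAT was present in all 3, but also in 15 of the 16 matched promoters of tested Hist genes. Its presence therefore could hardly separate any of them, and nothing about their response is concluded from it.

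The difference between the largazole responses of the genotypes was tested for each gene. None of the 28 histone genes passed, in either direction, and neither did any with DESeq2 or limma-voom, while 5 had an unadjusted p under 0.05 with edgeR's quasi-likelihood test. Over all genes 0.207% passed. For H2afx the response in KD cells minus that in parental cells was -0.43 ± 0.17 on the log2 scale (adjusted p = 0.505), and it passed only without KD largazole replicate 1 (-0.58, adjusted p = 0.0318, range over alternatives 0.0318 to 1). For H1f0 it was -0.25 ± 0.12 (adjusted p = 0.615), for Hist1h2bc -0.18 ± 0.26 (adjusted p = 0.938) and for Hist2h2be -0.37 ± 0.27 (adjusted p = 0.808). Hist1h1c, with responses of opposite sign, differed by -0.67 ± 0.25 (adjusted p = 0.474).

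**Figure D5:**
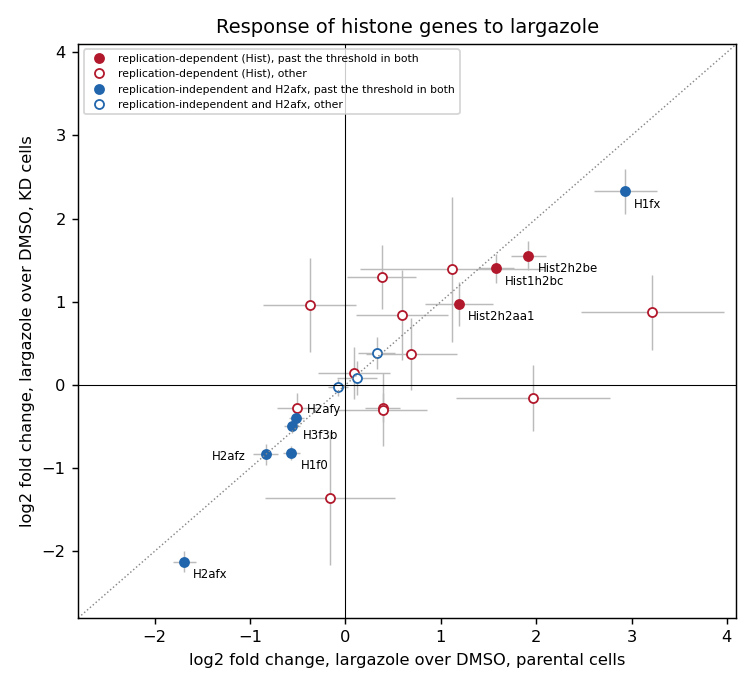
Log2 fold change of largazole over DMSO in KD cells (vertical) against parental cells (horizontal) for 24 tested histone genes, with SE bars; filled points passed the threshold in both genotypes, the dotted line marks equal responses, and 4 genes with an SE of 1 or more are left out. H1fx, Hist2h2be, Hist1h2bc and Hist2h2aa1 lie in the upper right, and H2afx, H1f0, H2afz, H3f3b and H2afy in the lower left.

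The knockdown was compared with parental cells within each condition. In DMSO 5 of the 28 histone genes were higher in KD cells and 0 lower, all 5 of them Hist genes (edgeR's quasi-likelihood test). Among all genes tested 11.0% passed and 7.01% were higher. Of the 5 histone genes, Hist1h3d was kept by the filter through KD libraries only. Hist2h3c2 did not pass once its counts were summed with those of its copy Hist2h3c1 (adjusted p = 0.395, same test). The count of 5 is therefore not read as an excess over all genes. Under largazole 2 of the 28 histone genes were higher and 1 lower, where 18.2% of all genes passed, 8.47% higher and 9.77% lower. The median log2 fold change over the 19 Hist genes, divided copies included, was 0.39 in DMSO and 0.47 under largazole. It was 0.07 and 0.14 over the other 9, and 0 and -0.00265 over all genes tested. Summed over the 67 Hist genes, KD cells had 1.50 times the parental CPM in DMSO and 1.38 times under largazole, and over the 9 others 0.976 and 0.979 times. Fibroblast and stroma markers also differed with the knockdown: of the 8 tested, 5 were higher and 0 lower in KD cells under largazole (median log2 fold change 0.71), and 7 were higher and 0 lower in DMSO (median 0.63). Their part in the histone calls was not tested.

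Hist1h2bc and Hist2h2aa1 were higher in KD cells in both conditions. For Hist1h2bc, whose CPM values stand above, the log2 fold change was 0.63 ± 0.16 under largazole (edgeR's quasi-likelihood test, adjusted p = 0.0244) and 0.81 ± 0.20 in DMSO (adjusted p = 0.0263). For Hist2h2aa1 it was 1.13 ± 0.27 under largazole (adjusted p = 0.0163) and 1.35 ± 0.35 in DMSO (adjusted p = 0.0364). In both genes each KD library was above each parental library of the same condition. Hist2h2be did not pass (0.14 ± 0.15, adjusted p = 0.567, and 0.51 ± 0.22, adjusted p = 0.180). H1f0 was lower in KD cells under largazole, by a log2 fold change of -0.38 ± 0.08 (adjusted p = 0.0138), and had -0.13 ± 0.08 in DMSO (adjusted p = 0.403). The calls of all 3 genes under largazole were lost without parental largazole replicate 1 or replicate 2 (adjusted p 0.0988 and 0.0807 for H1f0, 0.0943 and 0.154 for Hist1h2bc, 0.0882 and 0.105 for Hist2h2aa1). Over all alternatives these p-values lay between 0.000180 and 0.0988, 8.38e-05 and 0.154, and 0.000766 and 0.105.

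Of the other calls in DMSO, those of Hist1h3d and Hist2h3c2 rested on few counts. Hist1h3d had 11.2 and 11.0 counts in KD DMSO, against 1.10 in each parental DMSO library, and 8.35 and 10.8 counts in KD largazole, against 4.48 and 4.98 in parental largazole. The KD libraries were higher in both conditions, and the DMSO log2 fold change was 3.29 ± 0.66 (adjusted p = 0.00864, edgeR's quasi-likelihood test). Only KD libraries of Hist1h3d reached 10 counts. The filter thus kept this gene through the genotype in which it was called higher. Hist1h1c, with 134 and 122 counts in KD DMSO against 72 and 90 in parental DMSO, rose by 0.64 ± 0.18 (adjusted p = 0.0479), and Hist2h3c2 had 2.84 ± 0.80 (adjusted p = 0.0477), which fell to 0.76 ± 0.50 (adjusted p = 0.395) when its counts were summed with those of Hist2h3c1. Each of the 5 calls in DMSO was lost without parental DMSO replicate 1 and without parental DMSO replicate 2, and those of Hist2h2aa1, Hist1h1c and Hist2h3c2 also without either parental largazole library. Without either KD DMSO library the calls of Hist1h2bc, Hist2h2aa1, Hist1h1c and Hist2h3c2 were lost. Over all alternatives the highest adjusted p was 0.170 for Hist1h2bc, 0.24 for Hist2h2aa1, 0.127 for Hist1h3d, 0.291 for Hist1h1c and 0.242 for Hist2h3c2. Without Rn45s 4 genes passed, with Hist2h3c2 lost. Calls in DMSO also depended on the method. Hist1h1c was lost with RLE scaling, no filter, DESeq2 and limma-voom, and Hist1h3d with DESeq2. Hist1h2bc was lost with limma-voom, Hist2h2aa1 with no filter and limma-voom, and Hist2h3c2 with no filter.

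A test of any difference among the 4 groups passed for 12 of the 28 histone genes, where 63.6% of all genes passed. These were 6 of the 19 Hist genes and 6 of the 9 others.

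Genes of the histone supply chain were described from lists beside the members. Of 21 tested genes of histone gene transcription and mRNA 3′ end processing, 0 rose and 16 fell with largazole in KD cells (median log2 fold change -0.46), and 0 rose and 13 fell in parental cells (-0.42). Over all genes tested 23.2% fell in KD cells and 22.7% in parental cells. Slbp, the stem-loop binding protein, had a mean of 45.9 CPM in KD largazole, 99.6 CPM in KD DMSO, 51.7 CPM in parental largazole and 97.5 CPM in parental DMSO. It fell by 1.12 ± 0.09 on the log2 scale in KD cells (adjusted p = 6.12e-06) and 0.92 ± 0.09 in parental cells (adjusted p = 2.22e-05, edgeR's quasi-likelihood test). Npat, the coactivator of Hist gene transcription, fell by 0.83 ± 0.14 and 0.63 ± 0.13, and Srrt, a cap-binding partner, by 1.01 ± 0.08 and 0.83 ± 0.08. Lsm11, a protein of the U7 particle, fell by 0.88 ± 0.16 and 0.51 ± 0.16, while Lsm10, its partner there, did not pass (0.30 in both). Under largazole 3 of the 21 were lower in KD than in parental cells, and in DMSO 0 were, with 0 higher in both.

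Of 28 tested histone chaperone and deposition genes, 21 fell in each genotype and 0 rose (medians -0.49 in KD cells and -0.50 in parental cells). The shares of all genes that fell were 23.2% and 22.7%. Nasp, a chaperone of H3 and H4, fell by 1.32 ± 0.09 and 1.26 ± 0.09, Chaf1a, a subunit of the replication-coupled assembly factor CAF-1, by 1.36 ± 0.09 and 0.87 ± 0.08, and Asf1b by 1.23 ± 0.12 and 0.69 ± 0.12. Hira, which deposits H3.3, fell by 0.42 ± 0.09 and 0.28 ± 0.09, and Daxx, the other H3.3 chaperone, did not pass (-0.03 and 0.15). KD cells were lower than parental cells in 10 of the 28 under largazole and 3 in DMSO. Cenpa, the centromeric H3 variant outside the rule for members, fell by 1.10 ± 0.10 in KD cells and 1.16 ± 0.10 in parental cells. H2afy2, the macroH2A2 gene, fell by 1.15 ± 0.29 in KD cells (adjusted p = 0.00798) and had -0.65 ± 0.26 in parental cells (adjusted p = 0.0605).

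Cell cycle genes moved with these changes. Of 33 tested genes of DNA replication and S phase, 1 rose and 32 fell with largazole in KD cells (median -1.53), and 1 rose and 30 fell in parental cells (-1.03). Over all genes tested 24.9% rose and 23.2% fell in KD cells, and 26.9% rose and 22.7% fell in parental cells. The gene that rose was E2f2, an activator of S phase genes. Mcm6, a subunit of the replicative helicase, had a mean of 81.6 CPM in KD largazole, 283 CPM in KD DMSO, 129.9 CPM in parental largazole and 296 CPM in parental DMSO. KD cells were lower in 26 of the 33 under largazole (median -0.81) and in 12 in DMSO (-0.22), and the difference between the responses passed for Mcm6 and Fen1. All 15 tested mitosis genes fell in both genotypes (medians -1.37 and -1.23). Of 14 tested genes of G1 and cell cycle exit, 2 rose and 6 fell in KD cells and 3 rose and 8 fell in parental cells, with Cdkn1c, an inhibitor of cyclin-dependent kinases, rising by 3.37 ± 0.53 and 2.504 ± 0.40. The fall of S phase genes thus stood beside a rise of the summed polyadenylated Hist RNA and beside the fall of H2afx and H2afz. That rise lay mostly in Hist1h2bc, Hist2h2be and Hist2h2aa1. The other 64 Hist genes, summed, had largazole to DMSO ratios of 1.04 in KD cells and 1.14 in parental cells. The part of the S phase genes in these results was not tested.

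Markers of other cells were measured in the same libraries. The 10 leukocyte markers summed to 42.7 to 49.3 CPM in KD largazole, 4.55 to 4.72 CPM in KD DMSO, 62.8 to 63.8 CPM in parental largazole and 4.14 to 5.06 CPM in parental DMSO. Nearly all of it was Cd68, a lysosomal gene, at 41.1 CPM or more in each largazole library, while Cd3e, Adgre1 and Tyrobp were at 0 throughout. The 8 endothelial markers summed to 4.42 to 8.37 CPM in all libraries, with Kdr, Erg and Cldn5 at 0. Fibroblast and stroma markers summed to between 9054 and 10940.0 CPM in each library over 10 genes, of which only 8 passed the filter. The keratinocyte markers summed to 1773 to 1976 CPM in KD largazole, 2661 to 2738 CPM in KD DMSO, 1625 to 1709 CPM in parental largazole, and 2488 to 2629 CPM in parental DMSO. Krt8 made up most of that sum: of the 11 tested keratinocyte markers, 7 were higher and 2 lower with largazole in KD cells (median log2 fold change 1.36), and 6 were higher and 2 lower in parental cells (median 0.77). Among all genes tested, 24.9% were higher and 23.2% lower with largazole in KD cells, and 26.9% and 22.7% in parental cells. The part of the marker differences in the histone results was not tested.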

How the data were processed

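Polyadenylated RNA of 8 libraries was measured. Per the labels' protocols, directional libraries were made from poly(A)-selected RNA. The build was mm10, per the submitters' processing notes. Which aligner, counter, strand setting and annotation the authors used is not given in the sources used here. As deposited by the authors, the values are estimated counts per gene symbol without normalization, partly fractional and with unequal totals. They were rounded before testing. Precision is limited by counting for genes with few counts.

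Genes with at least 10 counts in at least 2 libraries (12567) were tested with the quasi-likelihood F test of edgeR 4.0.16 (TMM scaling, two-sided, 1 mean per group, common biological coefficient of variation 0.0946). Adjusted p is Benjamini-Hochberg over all genes tested, threshold 0.05, and SE was taken as |log2 fold change| over the root of F. The test was checked on simulated data, with changes planted only in genes above a set level and no reads divided between copies. That check does not cover the low or fractional counts of most Hist genes. Sums over classes carry no test. The 5 contrasts were largazole in KD and in parental cells, the knockdown under largazole and in DMSO, and the difference between responses, with 1 test over all groups. Values after ± are SE.

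Members and gene lists were chosen with earlier results of these data known. Genes named were the 9 single genes, the Hist genes of highest mean CPM, called members, genes beside the filter and called genes of the lists with small p; a few further list genes were named after their values were seen. Transcripts came from GENCODE M21 (GRCm38, the same assembly as mm10) and promoters from RefSeq (GRCm38.p6); member symbols matched older RefSeq synonyms.

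Alternatives were scaling by upper quartile, RLE or library totals alone, no filter and a stricter filter (30 counts), DESeq2 1.42.0 and limma-voom (limma 3.58.1). Others were only the libraries compared, the replicate number as a block, removal of Rn45s and leaving out each library. The pairs of copies named above were summed after seeing the data. R 4.3.3, Python and matplotlib were used.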

Additional observations from a re-analysis of the deposited data

How the results depend on the processing

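The 2 largazole counts (10 histone genes each) stayed within 1.5 times under every alternative, between 9 and 13 without any 1 library, and the count over the 4 groups (12) lay between 11 and 17. Under largazole 3 genes differed with the knockdown (over all genes 2293), and 1 did with only the libraries compared (964). The number moved when 1 library was left out, as did the count over all genes. All 3 calls were lost without either parental largazole library, where fewer genes also passed over all genes. In DMSO 5 differed (over all genes 1384). There were 2 with no filter (1150), 3 with DESeq2 (1290), 2 with limma-voom (1352) and 8 with only the libraries compared (3265). This number also moved when 1 library was left out, as did the count over all genes. For the difference between responses (0 genes) the range without 1 library was 0 to 2. The replicate numbers were not taken as pairs: the labels do not say what a number marks, and same-numbered deviations correlated at 0.146 to 0.364 in 4 of 6 pairs of groups but at -0.00765 and 0.00166 in the other 2. With the replicate block 7 histone genes differed with the knockdown under largazole, adding H1fx, H2afx, Hist1h2br and Hist2h3c1 (over all genes 3108, against 2293 with no block), and 1, Hist2h3c1, in the difference (over all genes 104, against 26). Over the 28 calls of single genes and all alternatives, the call was kept 558 times, lost 50 times and reversed 0 times. Upper-quartile scaling moved the median of all genes from 0.03 to 0.11 in parental cells, with no change in these counts. Sums by class and cluster gave directions only. Leaving out a library leaves 1 in its group, assumed to vary like the others. Low counts limit most Hist genes. The causes were not tested.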
